A study of Mus musculus with 27 samples.

Results

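The nuclear and snoRNA-host noncoding RNAs examined here are 6 genes, measured in mouse embryonic fibroblasts (MEFs) with and without the *Firre* locus, namely *Malat1*, *Neat1* and *Miat*, which are retained in the nucleus, and *Gas5*, *Snhg1* and *Snhg12*, which are hosts of small nucleolar RNAs (snoRNAs). They were chosen by symbol from the 37310 genes of the table, and 5 of the 6 passed the filter on low counts. The study asked whether the *Firre* locus, an X-linked gene of a nuclear long noncoding RNA, shapes chromosome domains, and its RNA-seq compared KO with wild-type cells. The 12 libraries form 4 groups of 3, which are female wild-type (WT), female *Firre* KO, male WT and male *Firre* KO MEFs. All were unsorted primary fibroblast cultures from midgestation embryos, grown out of the trunk as lines of single embryos, and the strain of these embryos is not given in the sources used here. In the KO groups, recombination between loxP sites removed the whole gene with its promoter, so loss of the RNA and loss of the DNA cannot be told apart, and no other allele or treatment was named for any of the 4 groups. The labels do not say whether the 3 libraries of a group come from separate embryos or cultures, and p-values then measure only the spread between these libraries.

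*Malat1* and *Neat1* are unspliced RNAs transcribed from neighbouring genes. *Malat1* gathers in nuclear speckles, the stores of splicing factors, whereas *Neat1* is the scaffold around which paraspeckles are built, and *Miat* forms nuclear foci of its own, mainly in neurons. A snoRNA host gene makes an RNA whose introns are trimmed to snoRNAs, the guides for chemical modification of ribosomal RNA, while the spliced host RNA reaches the cytoplasm and is often removed there by nonsense-mediated decay.

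The members lie on 4 chromosomes of the genome build mm9, to which the deposited table refers, and 3 of the 6 are on chromosome 19. *Malat1* (ENSMUSG00000092341.1, chr19:5795690-5802671, minus strand) has 6982 exonic bases in 1 block. *Neat1* (ENSMUSG00000092274.1, chr19:5824708-5845478, minus strand) lies 22.0 kb away on the same strand and is also annotated as 1 block, of 20771 bases. *Miat* (ENSMUSG00000086878.2, chr5:112642248-112657968, minus strand) has 8760 exonic bases in 7 blocks. Among the hosts, *Snhg1* (ENSMUSG00000090867.1, chr19:8797986-8800932, plus strand) has 2947 exonic bases, *Gas5* (ENSMUSG00000053332.7, chr1:162964553-162968670, plus strand) has 3760 bases from 25 annotated transcripts, and *Snhg12* (ENSMUSG00000086290.1, chr4:131864593-131866939, plus strand) has 1626 bases from 6 transcripts. *Firre* itself is listed as 6720401G13Rik (ENSMUSG00000085396.1) at chrX:47908921-47988498 on the minus strand.

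The hosts hold 21 annotated snoRNA genes on their own strand, 9 in *Gas5*, 8 in *Snhg1* and 4 in *Snhg12*. For each host the snoRNA with the highest count is given from the mm9 genome, 5′ to 3′, to show what the host carries. Capitals mark the C box (TGATGA) near the 5′ end and the D box (CTGA) near the 3′ end of box C/D snoRNAs, or the ACA near the 3′ end of a box H/ACA snoRNA, each searched on the RNA strand within 15 bases of the end.
SNORD24 in *Gas5*, chr1:162966188-162966270, plus strand: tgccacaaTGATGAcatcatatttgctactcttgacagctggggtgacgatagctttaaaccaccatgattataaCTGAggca
Snord22 in *Snhg1*, chr19:8800356-8800481, plus strand: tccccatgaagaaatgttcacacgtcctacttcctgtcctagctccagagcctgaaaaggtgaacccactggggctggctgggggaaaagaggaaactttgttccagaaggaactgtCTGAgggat
Snora16a in *Snhg12*, chr4:131865380-131865515, plus strand: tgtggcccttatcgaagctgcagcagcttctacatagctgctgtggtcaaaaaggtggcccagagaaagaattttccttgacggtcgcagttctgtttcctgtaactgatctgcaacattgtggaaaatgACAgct
Both boxes in exactly these letters were found in 7 of the 9 snoRNAs of *Gas5*, in 5 of the 8 of *Snhg1* and in 1 of the 4 of *Snhg12*, against 17.7% of the 1552 annotated snoRNA genes of the mouse. Snord22 holds the D box letters but not the C box letters. The final ACA was searched only in host snoRNAs whose names do not begin with SNORD or Snord, all in *Snhg12*. It was found in 2 of them. Of all annotated snoRNA genes, searched whatever their names, 52.1% hold these 3 letters in that window. This share is therefore not a like measure.

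Few reads were assigned to the snoRNA genes. Their counts over all 12 libraries summed to 34.3 for the 21 genes, and 17 of the 21 were at 0 throughout. Snord22 had 18.9 expected counts in all 12 libraries together, Snora16a had 14 and SNORD24 had 0.88. Snora16a lies in an intron of *Snhg12*, whereas all the others lie wholly within annotated exons of their hosts on the same strand, Snord22 with 126 and SNORD24 with 83 shared bases. Reads from these stretches can be assigned to the host, so a count of 0 does not show that a snoRNA was absent, and the values of *Gas5*, *Snhg1* and *Snhg12* may include reads from snoRNA sequence. How fully the library kit captures RNAs this short was not tested either.

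**Figure D1:**
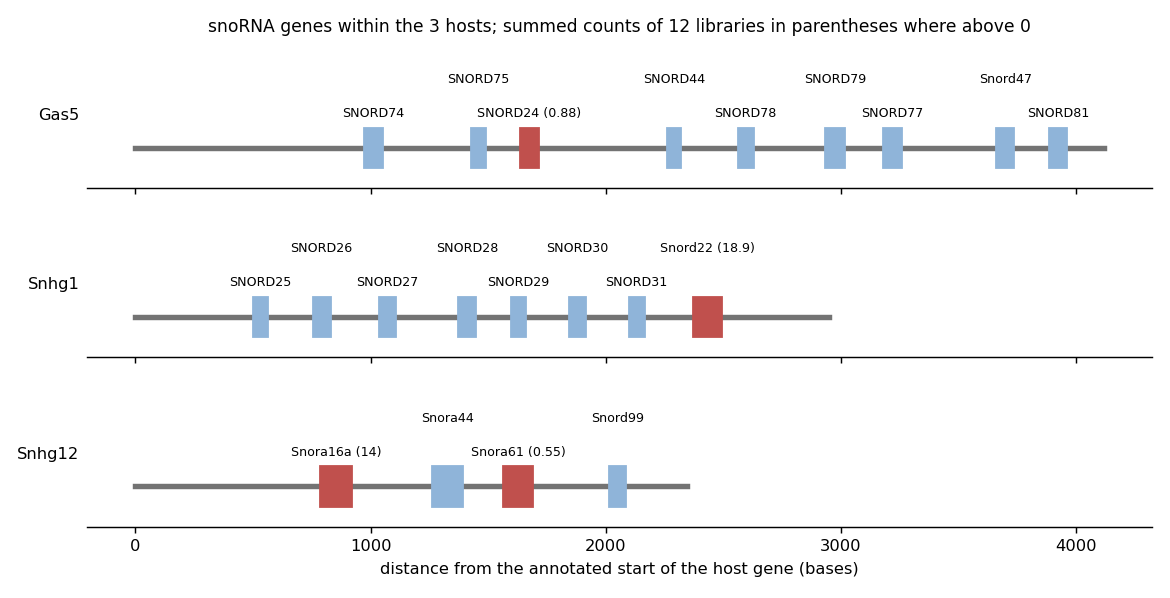
Positions of the 21 annotated snoRNA genes within the 3 host genes, drawn to scale as distance in bases from the annotated start of the host (grey line, the span of the host). Red boxes had at least a fraction of 1 expected count and blue boxes had 0, and the 4 sums over the 12 libraries in parentheses run from 0.55 for Snora61 to 18.9 for Snord22.

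Host genes of this kind are known for starts with a run of pyrimidines, a feature shared with mRNAs of the translation machinery. Windows from 40 bases before to 30 bases after the RefSeq start (GRCm38.p6, another build than that of the counts) are given for the 3 hosts and for *Malat1* and *Miat*, which host no snoRNA here. Capitals mark the longest run of C and T that begins with C within 10 bases of the start, searched on the gene's strand.
*Gas5*, chr1:161035126-161035195, plus strand: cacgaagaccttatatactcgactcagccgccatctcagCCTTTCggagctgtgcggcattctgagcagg
*Snhg1*, chr19:8723447-8723516, plus strand: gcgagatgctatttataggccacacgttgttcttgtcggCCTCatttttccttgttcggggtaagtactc
*Snhg12*, chr4:132308638-132308707, plus strand: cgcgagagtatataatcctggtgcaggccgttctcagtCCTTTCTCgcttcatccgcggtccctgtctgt
*Malat1*, chr19:5802643-5802712, minus strand: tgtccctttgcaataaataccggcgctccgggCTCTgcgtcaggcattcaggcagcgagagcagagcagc
*Miat*, chr5:112228919-112228988, minus strand: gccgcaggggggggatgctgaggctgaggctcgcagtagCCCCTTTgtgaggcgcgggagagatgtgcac
The run had 6 bases in *Gas5*, 8 in *Snhg12* and 7 in *Miat*, and 4 in both *Snhg1* and *Malat1*, so its length did not separate the hosts from the others. A run of at least 6 bases was found at 18.5% of the 32851 mouse starts in the same table. *Gas5* has another RefSeq start upstream, with a run of 3 bases, and *Neat1* has none in the table.

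Each library was checked before its members were read. Expected counts of *Firre* were 91, 90 and 129 in female WT, 287, 307 and 239 in male WT and 0 in all 6 KO libraries, as the genotypes require. Against the limit of 3 counts that a 0 allows, which covers counting error only, this is a level at least 33.0-fold lower in female and at least 93.3-fold lower in male cells. *Xist* had at least 17445 counts in every female library and at most 4 in every male library. All 12 fibroblast markers were present, with summed levels of 16410 to 24073 CPM (counts scaled to library size, here with TMM factors). Depth was 42986516 to 65454660 expected counts, and every male library was deeper than every female library. The 2 male libraries numbered 3, WT and KO, stood apart from the others of their groups: chi-square per degree of freedom was 37.8 to 45.1 for the 4 pairs that hold one of them and 7.55 to 16.6 for the other 8 pairs within groups.

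Abundance per length differed widely among the 6 RNAs. *Malat1* and *Gas5* were the highest, at 64.9 and 59.2 CPM per kb of merged exon as means of the 12 libraries, which places them at ranks 824 and 908 of 37310 genes and at ranks 10 and 11 of 3845 long noncoding genes. *Snhg1* had 19.1 CPM per kb (rank 2870), *Snhg12* 12.2 (rank 4225) and *Neat1* 2.49 (rank 9148). These are levels as read with the TruSeq version 2 library kit, and how fully it captures each RNA was not tested. *Miat* had 0.0151 CPM per kb (rank 18810), with 2 to 27 expected counts per library, so it was not an abundant RNA of these fibroblasts. *Firre* in WT MEFs had 1.52 CPM per kb of merged exon in female and 3.31 in male cells, where *Neat1* had 2.44 and 2.53. This nearness depends on the length used. Without division by length, *Firre* had 2.18 and 4.76 CPM in these cells and *Neat1* 50.6 and 52.6 CPM. With the median annotated transcript as the length, the means over all 12 libraries, KO included, were 2.42 CPM per kb for *Firre* and 25.6 for *Neat1*.

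The order within each sex depended on which length was used and on the sex. In female WT MEFs *Gas5* (53.3 ± 1.71 CPM per kb, SD, n = 3) was above *Malat1* (36.2 ± 3.996), and in male WT MEFs *Malat1* (98.7 ± 7.07) was above *Gas5* (64.5 ± 3.34). *Snhg1* and *Snhg12* were at 14.9 ± 0.438 and 12.4 ± 0.343 CPM per kb in female WT cells and at 24.0 ± 3.04 and 12.04 ± 1.04 in male WT cells, which places *Snhg1* above *Snhg12* beyond their spread in both. Merged exons overstate the length of a gene with short transcripts: the annotated transcripts of *Neat1* run from 152 to 20771 bases with a median of 2017, and dividing by the median instead raised it from 2.49 to 25.6 CPM per kb. With that length *Malat1* had 691, *Gas5* 354, *Snhg12* 32.8 and *Snhg1* 22.3 CPM per kb. *Malat1* and *Gas5* stayed the upper pair and *Miat* the lowest with each of the 3 lengths.

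**Figure D2:**
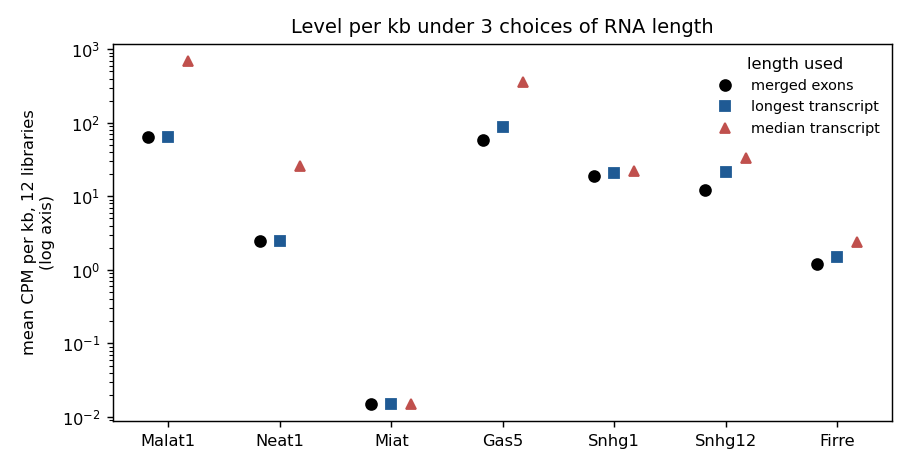
Mean level over the 12 libraries in CPM per kb (log axis) of the 6 RNAs and *Firre*, with the length taken as merged exons (circles), the longest annotated transcript (squares) or the median annotated transcript (triangles). *Malat1* ranges from 64.9 to 691 with the choice of length and *Neat1* from 2.49 to 25.6, and *Miat* stays at 0.0151.

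*Malat1* was the member with the largest difference in level between groups, and the difference followed sex. It had 279, 223 and 256 CPM in the female WT libraries and 228, 198 and 236 CPM in the female KO libraries. In male cells it had 642, 685 and 741 CPM in the WT and 673, 621 and 658 CPM in the KO libraries. The highest female library was thus far below the lowest male library, in both genotypes, while WT and KO overlapped within each sex.

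*Neat1* did not separate by sex or genotype. It had 56.0, 47.7 and 48.2 CPM in female WT and 52.3, 50.6 and 48.2 CPM in female KO libraries. In male cells it had 42.5, 45.4 and 69.7 CPM in the WT and 46.3, 39.96 and 72.7 CPM in the KO libraries. The 2 highest of the 12 values were those of the male libraries numbered 3, and the other 4 male libraries lay below all female libraries.

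*Miat* was near the limit of detection. It had 2, 4 and 27 expected counts in female WT, 4, 5 and 3 in female KO, 4, 6 and 10 in male WT and 4, 2 and 12 in male KO libraries. The female WT library numbered 3 held 27 of the 33 counts of its group. *Miat* did not pass the filter on low counts, so the tests concern 5 of the 6 RNAs.

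Among the hosts, *Gas5* had the highest level. It had 193, 206 and 202 CPM in female WT, 207, 204 and 197 CPM in female KO, 245, 229 and 254 CPM in male WT and 241, 238 and 255 CPM in male KO libraries. Every female library was below every male library, and WT and KO overlapped within each sex.

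*Snhg1* showed a larger separation by sex. It had 44.7, 44.5 and 42.4 CPM in female WT and 39.4, 41.5 and 39.9 CPM in female KO libraries, against 70.0, 62.0 and 79.8 CPM in male WT and 60.8, 66.4 and 84.4 CPM in male KO libraries. All female libraries were below all male libraries. In female cells the KO libraries were all below the WT libraries by a few CPM, and in male cells the genotypes overlapped.

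*Snhg12* did not separate by sex or genotype. Its level was 19.6, 20.7 and 20.3 CPM in female WT, 21.3, 20.5 and 19.04 CPM in female KO, 19.1, 18.2 and 21.5 CPM in male WT and 18.1, 18.5 and 20.4 CPM in male KO libraries. The groups overlapped in each comparison.

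**Figure D3:**
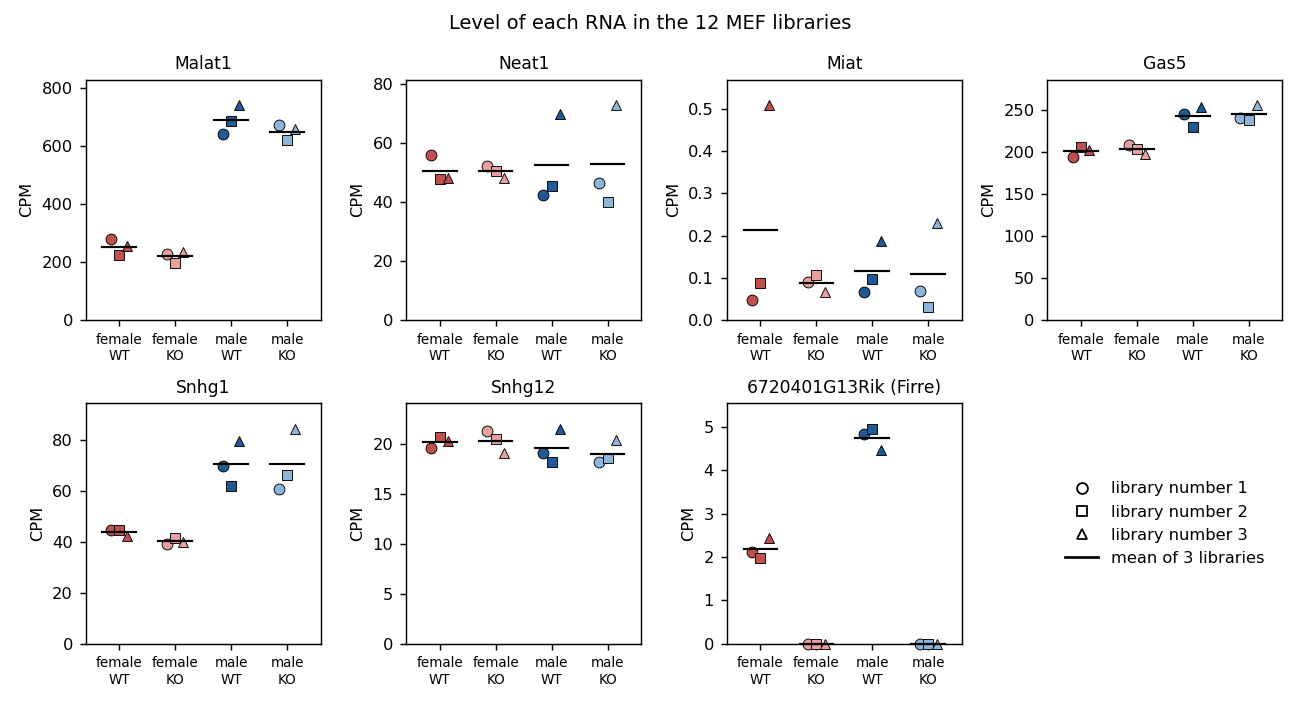
Level in CPM (TMM-scaled, linear axes from 0) of the 6 RNAs and *Firre* in each of the 12 libraries, by sex and genotype, with the library number as the symbol and the mean of 3 as a line. *Malat1*, *Gas5* and *Snhg1* are higher in every male than in every female library, *Neat1* is highest in the male libraries numbered 3 (69.7 and 72.7 CPM), and *Firre* is at 0 in the 6 KO libraries.

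Loss of *Firre* was not accompanied by a called change in any member. With the study's thresholds (adjusted p below 0.01, log2 fold change beyond 1 in either direction), 0 of the 5 tested members were called in female or in male cells. *Firre* was the only gene of 15387 called in each (0.0065% of genes in each sex, by the quasi-likelihood test of edgeR, adjusted after Benjamini and Hochberg over all genes). With only the libraries of the groups compared in the fit, the adjusted p of *Firre* was 0.0115 in female and 0.0105 in male cells (edgeR), past 0.01, so that its call was lost there. DESeq2 also called 0 members. At an unadjusted p under 0.05, 1 member passed in female cells, *Malat1*, and 0 in male cells, against 7.55% and 2.06% of all genes.

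*Malat1* had a log2 fold change of -0.20 ± 0.088 (SE) in female KO against WT cells, with a 95% interval of -0.39 to -0.00 and an adjusted p of 0.658. In male cells it was -0.08 ± 0.087, with an interval of -0.28 to 0.11 and an adjusted p of 1.00. The intervals leave room for a level up to 1.31-fold lower in female and up to 1.21-fold lower in male KO cells.

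The other members were closer to no change. In female cells the log2 fold change was -0.01 for *Neat1*, 0.02 for *Gas5*, -0.12 for *Snhg1* and 0.01 for *Snhg12*, and in male cells 0.01, 0.01, -0.00 and -0.04. *Gas5* was the most tightly bounded, with intervals of -0.09 to 0.12 in female and -0.09 to 0.11 in male cells. *Neat1* was the least, at -0.49 to 0.47 and -0.46 to 0.49. *Snhg1* in female cells was the 1 case of 5 in which KO and WT libraries did not overlap, where 19.1% of all tested genes did not overlap and 8.2% were likewise lower in KO, and its interval was -0.37 to 0.13 with an adjusted p of 0.836. In male cells 0 of 5 members did not overlap, against 5.29% of all genes.

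Averaged over the sexes, 0 of 5 members were called (0.0065% of all genes) and 1, *Malat1*, had an unadjusted p under 0.05, against 6.24% of all genes. Its averaged log2 fold change was -0.14 (interval -0.28 to -0.00, adjusted p = 0.790 by edgeR). The KO effect in female minus that in male cells passed for 0 of 5 members and 0% of all genes, with 0 members at an unadjusted p under 0.05, against 3.19% of all genes, and 0 by DESeq2. For *Malat1* this difference was -0.11 (interval -0.39 to 0.16) and for *Snhg1* -0.12 (interval -0.47 to 0.23) on the log2 scale.

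Female and male cells differed in *Malat1*, *Snhg1* and *Gas5*. The comparison was made in WT and again in KO cells, which share no libraries. *Malat1* was 2.73-fold lower in female WT cells (95% interval 2.38 to 3.12, log2 fold change -1.45 ± 0.089 SE, adjusted p = 4.12e-06) and 2.95-fold lower in female KO cells (2.57 to 3.38, -1.56 ± 0.090, adjusted p = 2.71e-06, edgeR). It was the 1 called member of 5 in each, where 4.54% of all genes were called in WT and 3.89% in KO cells, 1.55% and 1.58% as lower in female cells. *Snhg1* was 1.61-fold lower in female WT (1.35 to 1.91, adjusted p = 9.57e-04, edgeR) and 1.75-fold lower in female KO cells (1.47 to 2.08, adjusted p = 3.77e-04, edgeR), under the fold limit. *Gas5* was 1.21-fold lower in both (1.13 to 1.299 in WT and 1.123 to 1.29 in KO cells, with adjusted p of 0.00108 and 0.00123, edgeR), also under the fold limit.

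Many genes differed between the sexes. Without the fold limit, at an adjusted p under 0.05, 3 of 5 members passed in each genotype, all lower in female cells, and so did 38.7% of all genes, with 19.8% lower in female WT and 19.7% in female KO cells. Groups did not overlap for the same 3 of 5 members, against 51.9% of all genes in WT (26.4% lower in female) and 50.2% in KO cells (25.7% lower). The median log2 fold change of the 5 members was -0.28 in WT and -0.27 in KO cells, and that of all tested genes was -0.01 and -0.00.

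*Neat1* and *Snhg12* were not called. The log2 fold change of *Neat1*, female against male, was -0.05 in WT (interval -0.53 to 0.42) and -0.07 in KO cells (-0.55 to 0.41). Without the 2 male libraries numbered 3 its direction turned, to 0.20 in WT (adjusted p = 0.0722) and 0.22 in KO cells (adjusted p = 0.0512, edgeR), while *Malat1* stayed at -1.39 and -1.55. *Snhg12* had 0.04 (interval -0.11 to 0.20) and 0.09 (-0.07 to 0.25).

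**Figure D4:**
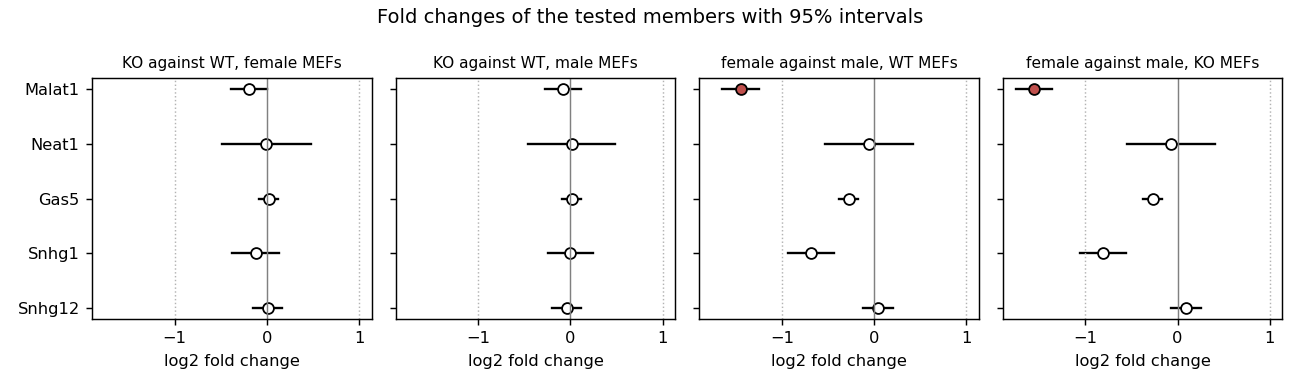
Log2 fold changes of the 5 tested members in 4 comparisons, with 95% intervals as lines. Filled circles passed an adjusted p under 0.01 and the fold limit (dotted lines at 1 and -1): *Malat1* alone, at -1.45 and -1.56 in female against male cells. The KO values all lie between -0.20 and 0.02.

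The sex difference cannot be told apart from depth, from the embryos or from the culture. Other measures moved with sex as well. Macrophage markers summed to 39.6 to 125 CPM over the female and 8.68 to 17.2 CPM over the male libraries, and 8 of 11 were called higher in female WT and 9 of 11 in female KO cells. Summed markers of neurons and glia were at 121 to 172 CPM against 68.6 to 98.4 CPM, and those of epithelium at 74.6 to 129 CPM against 40.8 to 53.7 CPM. Skeletal muscle markers, with 12 tested gene IDs for 11 symbols since *Tnnc1* has a pair of overlapping IDs, of which 5 in WT and 7 in KO cells were called higher in female cells, summed to 98.6 to 199.9 CPM against 86.2 to 150.3 CPM. Endothelial markers summed to 25.0 to 35.5 CPM against 17.1 to 23.3 CPM, with *Cldn5* at 0 in all male libraries, and cartilage markers to 165 to 398 CPM against 77.5 to 496 CPM, with *Matn1* at 0 in male WT. Fibroblast markers summed to 16410 to 20244 CPM in female and 19082 to 24073 CPM in male libraries. The part of these cells in the difference was not tested, and in bulk samples fewer cells of a type and less RNA per cell cannot be told apart.

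A ratio of 2 genes within a library is free of library scaling. The following ratios were chosen after the values were seen and are a description. The log2 ratio of *Malat1* to *Neat1* was 1.97 to 2.41 over the 6 female libraries and 3.18 to 3.96 over the 6 male libraries. That of *Snhg1* to *Gas5* was -2.40 to -2.11 in female and -1.98 to -1.60 in male libraries, and that of *Snhg1* to *Snhg12* 0.89 to 1.19 and 1.74 to 2.05. The ranges of the sexes did not overlap for any of the 3 ratios.

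Genes around *Malat1* and *Neat1* had smaller sex differences in value than *Malat1*. *Frmd8* lies 4.22 kb from *Neat1* and had a log2 fold change of -0.04 ± 0.073 (SE, adjusted p = 0.727, edgeR) in female against male WT cells and 0.09 ± 0.073 (adjusted p = 0.370, edgeR) in KO cells. Of 21 other tested genes within 250 kb of *Malat1*, a window chosen after the sex difference was seen, 1 was called in WT, *Ltbp3* at -1.14, and 0 in KO cells, in which *Ltbp3* had -0.90. *Ltbp3* encodes a binding protein of latent TGF-beta. The median over the 21 genes was -0.04 in WT and 0.08 in KO cells. In the KO comparisons *Frmd8* was not called, with 0.09 in female and -0.03 in male cells.

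**Figure D5:**
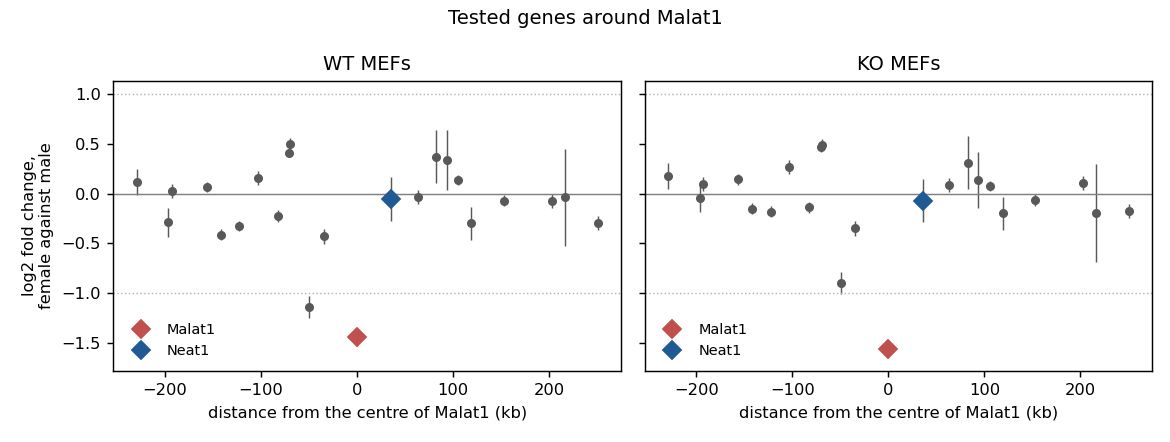
Log2 fold change, female against male, of tested genes by distance in kb from the centre of *Malat1*, in WT and KO cells, with 1 SE as error bars. *Malat1* lies at -1.45 and -1.56, *Neat1* near 0, and the lowest of the other genes is *Ltbp3* at -1.14 and -0.90.

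Neighbours of the hosts and of *Miat* were read in the same way. *Slc3a2*, the heavy chain of amino acid transporters, starts 0.127 kb from *Snhg1* on the other strand and had a log2 fold change of 0.15 in female against male WT cells (adjusted p = 0.0688, edgeR) and 0.19 in KO cells (adjusted p = 0.0243, edgeR), where *Snhg1* had -0.69 and -0.81. *Wdr74*, a ribosome assembly factor on the other side, had 0.29 in WT (adjusted p = 0.00150) and 0.32 in KO cells (adjusted p = 7.98e-04, edgeR), also of opposite sign to *Snhg1*. Beside *Gas5*, which had -0.28 in WT and -0.27 in KO cells, *Rc3h1* had -0.11 and -0.15. Beside *Snhg12*, *Trnau1ap* had -0.06 and -0.05 and *Rab42-ps* 0.16 and 0.04. Beside *Miat*, *Tpst2* had -0.04 and 0.05 and *E130006D01Rik* -0.63 and 0.05. None of these was called. In the KO comparisons none of these genes was called in either sex. *Zbtb37* overlaps the 5′ end of *Gas5* on the other strand with 0 shared exonic bases, and *Gm20417* lies within *Malat1* on the other strand with 425 shared bases and 0 counts in all libraries. Whether reads were counted by strand is not given in the sources used here, so antisense RNA within *Malat1* cannot be told apart from it.

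Members of the same kind were compared across libraries of one sex, as 8 relations of log2 CPM over 6 libraries each. *Gas5* and *Snhg12* had a Pearson r of 0.88 in female (permutation p = 0.0208, adjusted p = 0.0528, Spearman rho 0.94 with permutation p = 0.0167) and 0.87 in male libraries (permutation p = 0.0264, adjusted p = 0.0528, rho 0.77 with permutation p = 0.103). Without the 2 libraries farthest from the median of *Gas5*, r was 0.93 and 0.95. In male libraries *Snhg1* had r of 0.89 with *Gas5* (permutation p = 0.0208, rho 0.83 with permutation p = 0.0583, 0.89 without the farthest pair) and 0.92 with *Snhg12* (permutation p = 0.0125, rho 0.94 with permutation p = 0.0167, 0.98 without it), both with an adjusted p of 0.0528. In female libraries *Snhg1* had r of -0.31 with *Gas5* (permutation p = 0.553, rho -0.49 with permutation p = 0.356, -0.32 without the farthest pair) and -0.11 with *Snhg12* (permutation p = 0.825, rho -0.26 with permutation p = 0.658). The latter turned to 0.83 without the farthest pair, so it rests on those libraries. *Neat1* and *Malat1* had 0.41 in female (permutation p = 0.414, rho 0.31 with permutation p = 0.564) and 0.61 in male libraries (permutation p = 0.219, rho 0.60 with permutation p = 0.242). Without the farthest pair these were -0.76 and 0.96, so the female value turned in sign. None of the 8 was under an adjusted p of 0.05. With library size alone in place of TMM, 4 of the 8 were, at 0.0407 to 0.0417 (the host pairs in male libraries, and *Gas5* with *Snhg12* in female libraries, by permutation), and the negative female values became 0.0050 and 0.13. The male libraries numbered 3, which stood apart, held the highest male values of all 3 hosts. In male cells the farthest pair left out above was these 2 for *Snhg1* with *Snhg12*, with r of 0.92 before and 0.98 after. It was these 2 also for *Neat1* with *Malat1*, with 0.61 and 0.96. The pair held 1 of them for the relations with *Gas5*, for which the part of both was not tested. Each r without a pair rests on 4 libraries and was given no p-value.

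The genes whose levels followed each member most closely, by the lower of r over the 6 female and r over the 6 male libraries, were *Krit1* (0.92) and *Abcc5* (0.88) for *Malat1*, *RP23-396G1.3* (0.93) and *Rad54b* (0.92) for *Neat1*, *Rad1* (0.96) and *Wdr75* (0.93) for *Gas5*, *Zfp207* (0.97) and *Tmem33* (0.95) for *Snhg1*, and *Lig4* (0.96) and *Cul3* (0.94) for *Snhg12*. These are the top 2 of all tested genes for each member and share libraries and scaling with it, so they are a description.

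The proteins known to work with *Neat1* and *Malat1* included no called gene. The counts at an adjusted p under 0.05 for these and the following lists stand beside 18.9% of all tested genes higher in female cells in both genotypes, and 19.8% lower in WT and 19.7% lower in KO cells. Of 19 tested paraspeckle proteins 0 were called in any comparison. In female against male cells 3 were higher and 3 lower at an adjusted p under 0.05, in WT and in KO, where 38.7% of all genes passed in either direction, and those furthest from 0 were *Taf15* (-0.33 in both) and *Ss18l1* (-0.46 and -0.32). Of 20 tested speckle and splicing factors 0 were called, with 2 higher and 5 lower in WT and 2 higher and 7 lower in KO cells, beside the same 38.7%. *Son*, a scaffold of speckles, had -0.38 (adjusted p = 1.76e-05) and -0.40 (adjusted p = 1.38e-05, edgeR), *Srsf11* -0.30 in WT and *Clk4*, a kinase of splicing factors, -0.41 in KO cells.

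Most snoRNA ribonucleoproteins were higher in female cells by the adjusted p alone. Of 16 tested, 11 in WT and 12 in KO cells were higher in female cells at an adjusted p under 0.05 and 0 were lower, against 18.9% of all genes higher in each, though 0 of 16 passed the fold limit. *Nhp2*, of box H/ACA particles, had 0.42 and 0.47, and *Ruvbl2*, an assembly factor, 0.40 and 0.46. Of 10 other tested genes listed as snoRNA hosts, 3 were higher and 3 lower in each genotype at that adjusted p. Beyond *Meg3*, named after their values were seen, 2410006H16Rik (0.59 and 0.73), *Snhg3* (0.56 and 0.48) and *Snhg4* (0.60 and 0.51) were higher and *Rian* (-0.76 and -0.77) lower in female cells. *Meg3* (-1.52 and -1.54) was the 1 called. The role of *Meg3*, of 2410006H16Rik and of 0610007P14Rik, also on the list, as hosts was not checked. *Meg3* and *Rian* also stand on the list of other long noncoding RNAs below, so the call of *Meg3* enters both lists.

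Among 15 other tested long noncoding RNAs known in fibroblasts, *Xist* and its antisense partner *Tsix*, whose reads cannot be told apart without strand, were called higher in female cells of both genotypes, and *Meg3*, with means of 175 CPM in female WT and 503 CPM in male WT cells, and *Dnm3os*, at 34.7 and 84.5 CPM, were called lower. The log2 fold change of *Dnm3os* was -1.29 in WT and -1.55 in KO cells. In KO cells *H19* (-1.07) and *Mirg* (-1.02) were called lower as well. At an adjusted p under 0.05, 2 of the 15 were higher and 6 lower in WT, and 2 higher and 8 lower in KO cells, beside 19.8% and 19.7% of all genes lower. Nonsense-mediated decay factors included 0 called of 13, with 4 higher and 2 lower in WT and 7 higher and 2 lower in KO cells at an adjusted p under 0.05 (38.7% of all genes passed in either direction in each), with *Magohb* (0.38) and *Magoh* (0.29) furthest from 0 in WT and *Eif4a3* (0.27) and *Magoh* (0.26) in KO cells. Of 13 transcripts known as targets of that decay, 1 was called, *Chac1*, a stress-induced enzyme of glutathione breakdown, at -1.33 and -1.31. At an adjusted p under 0.05 1 was higher and 6 lower in WT, and 2 higher and 5 lower in KO cells. Of 17 translation machinery genes listed as having pyrimidine-rich starts, a run of at least 6 bases was found by the search above in 4 of the 10 that matched a RefSeq start. Among the 17, 0 were called, with 4 higher in WT and 8 in KO cells and 0 lower, and *Hnrnpa1* had the largest values, 0.58 and 0.63, with adjusted p of 0.0956 and 0.0727 (edgeR), followed by *Eif3h* (0.28) in WT and *Eif3f* (0.35) in KO cells.

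In KO against WT cells 0 genes of these 8 lists were called in either sex. The list medians ran from -0.11, for the long noncoding RNAs of fibroblasts, to 0.10, for the translation machinery, in female cells, and from -0.05 to 0.04 in male cells, beside -0.00 for all tested genes in both.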

How the data were processed

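RNA-seq of 12 MEF libraries was analysed, and the ChIP-seq and Hi-C samples of the series were not analysed here. RNA was extracted with TRIzol and RNeasy columns and libraries were made with the TruSeq version 2 kit. Per the submitters' processing notes and the study's methods, the authors mapped reads with Bowtie 2 to mm9, quantified them with RSEM 1.2.29 and deposited an expected count per gene without scaling. RSEM divides reads that match several transcripts or genes, so values need not be whole, and they were rounded here.

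The members and gene lists were chosen with earlier results of these data known. All 12 libraries entered 1 fit in edgeR 4.0.16 (R 4.3.3), with filterByExpr (15387 genes), TMM factors and the quasi-likelihood test, which left 8 residual degrees of freedom, with Benjamini-Hochberg adjustment. Levels are CPM. Coordinates and exons came from GENCODE annotation of mm9, which held all 37310 identifiers, and start sequences from RefSeq. Named genes were the members, *Firre*, the nearest tested gene on each side (2 are not reported here), overlapping genes and up to 3 snoRNAs by count, list genes past the thresholds (up to 4, else the 2 with the largest change, given for female against male comparisons), and the 2 genes most like each member. In the list of other long noncoding RNAs the called genes were named in full. Self-tests on simulated counts were checked for recovery of known changes. Correlations used exact permutations (SciPy 1.17.1), two-sided. Alternatives were DESeq2 1.42.0, other scalings and filters, a replicate block and left-out libraries. The replicate numbers were not taken to pair samples, since not all same-numbered libraries deviated together.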

Additional observations from a re-analysis of the deposited data

How the results depend on the processing

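Under every alternative 0 members were called in the KO comparisons and their interaction with sex, and *Malat1* stayed called in female against male cells, with log2 fold changes of -1.53 to -1.37 in WT and -1.61 to -1.49 in KO cells when 1 library was left out. At an adjusted p under 0.05 with no fold limit, 3 members passed in WT and 3 in KO cells, and the genes called rose from 698 to 5953 and from 599 to 5949. Leaving out both male libraries numbered 3 was chosen after the data were seen. Of 640 alternative fold changes of members, 52 differed in sign, all of uncalled values, and *Neat1* ranged from -0.19 to 0.20 (WT) and -0.24 to 0.22 (KO) in female against male cells with 1 library left out.

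With the replicate number as a block, the adjusted p of *Firre* was 0.0188 in female and 0.0118 in male cells, above 0.01, so 0 genes were called there, and *Malat1* stayed called in female against male cells of both genotypes. Same-numbered WT and KO libraries correlated at -0.164 to -0.118 in female and 0.097 to 0.333 in male cells, and not every library correlated best with its own number. With only the libraries of the groups compared, the adjusted p of *Firre* was 0.0115 in female and 0.0105 in male cells. It was 2.43e-04 to 0.00539 in female, 7.13e-05 to 0.00167 in male and 1.61e-05 to 3.42e-04 in averaged cells with 1 library left out. The cause of these shifts was not tested. *Firre* was absent where at least 10 counts in every library were required.

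Levels per kb changed with the length: with the longest transcript, *Gas5* had 87.1 and *Snhg12* 21.2 CPM per kb, and with the median transcript, chosen after the data were seen, *Malat1* had 691, *Gas5* 354, *Snhg12* 32.8, *Neat1* 25.6 and *Snhg1* 22.3. With library size alone, r was 0.93 for *Gas5* and *Snhg12* in female libraries (permutation, adjusted p = 0.0407) and, in male libraries, 0.92 for *Gas5* and *Snhg1* (permutation, adjusted p = 0.0407), 0.88 for *Gas5* and *Snhg12* (0.0417) and 0.94 for *Snhg1* and *Snhg12* (0.0407), all now under 0.05. In female libraries *Gas5* and *Snhg1* had 0.0050 and *Snhg1* and *Snhg12* 0.13, against negative values with TMM. *Miat* was left out by the filter on low counts. Without that filter its log2 fold change was -1.30 in female and -0.13 in male KO against WT cells (adjusted p = 0.855 and 1.00) and 0.90 and -0.27 in female against male WT and KO cells (adjusted p = 0.495 and 0.916, edgeR).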
